A study of Mus musculus with 6 samples.

Results

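The enzymes that make and oxidize hydrogen sulfide (H2S) were examined in lung tissue of mice with an impaired glucocorticoid receptor (GR) after hemorrhagic shock (HS). The 7 genes were chosen by name and not by their values, though earlier results of these data were known. *Cth*, *Cbs* and *Mpst* make H2S, and *Sqor*, *Ethe1*, *Tst* and *Suox* oxidize it and its products. All 7 were found among the 54532 genes with deposited read counts, and all 7 were among the 16568 genes with enough reads to be tested (edgeR's filterByExpr). Each of 3 GR+/+ and 3 GRdim/dim mice gave 1 library of poly(A)-captured RNA. GRdim/dim mice carry a point mutation in *Nr3c1*, the GR gene, which impairs dimerization of the receptor in every cell type, and GR+/+ mice were their littermates on the same mixed background (129/SvEv x C57BL/6). The mice were 10 to 16 weeks old. All 6 had been anesthetized and ventilated, bled to a mean arterial pressure of 35 mmHg for 1 h, given back their blood and resuscitated for 4 h with fluid and norepinephrine before the lungs were taken. Lungs without HS were not analysed here, so the comparison asks what the genotype changes after HS and not what HS changes. The GR+/+ lungs came from 2 females and 1 male, and the GRdim/dim lungs from 1 female and 2 males.

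H2S is made in the cytosol by cystathionine β-synthase (*Cbs*) and cystathionine γ-lyase (*Cth*), the enzymes of the transsulfuration pathway from homocysteine to cysteine. It also comes from 3-mercaptopyruvate sulfurtransferase (*Mpst*), which takes sulfur from a keto acid made from cysteine and hands it to thioredoxin. In mitochondria, sulfide:quinone oxidoreductase (*Sqor*) oxidizes H2S to a persulfide and passes its electrons to coenzyme Q. The dioxygenase ETHE1 turns the persulfide into sulfite, rhodanese (*Tst*) moves sulfur between persulfide, sulfite and thiosulfate, and sulfite oxidase (*Suox*) makes sulfate with the help of a molybdenum cofactor. H2S is known to act on the tone of lung vessels and in the response to low oxygen, and in excess it blocks the respiratory chain.

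None of the 7 enzymes differed between genotypes beyond the spread between mice, by edgeR's quasi-likelihood test or by DESeq2. The libraries held 16361747 to 32082940 counts in GR+/+ and 15687734 to 24444604 counts in GRdim/dim mice. The 7 genes had 129 to 1977 counts per library, which gives a counting error of 8.80 to 2.25% of a value, beside an SD between lungs of a genotype of 4.27 to 31.3% of the mean. *Nr3c1* itself was at 148 ± 12.2 CPM (counts per 1000000 counts of the library, SD, n = 3) in GR+/+ and 143 ± 20.2 CPM in GRdim/dim lungs, and a count per gene does not show a point mutation. A score of sex-linked genes gave the stated number of females and males in each genotype. Lung markers were high in every library: *Sftpc*, the surfactant protein of alveolar type 2 cells, was at 9270 to 16394 CPM, and *Scgb1a1* of club cells at 13822 to 27513 CPM. Of the cell types with marker lists, 4 had sums that were separate between the genotypes. Of single genes tested, 14.8% were separate in CPM. The sums overlapped for neutrophils, fibroblasts, cardiomyocytes, adipocytes, hepatocytes and for club, alveolar type 1, alveolar type 2, endothelial and erythroid cells. The 8 B cell markers summed to 89.0 to 181 CPM in GR+/+ and to 213 to 729 CPM in GRdim/dim lungs, the 8 T cell markers to 22.6 to 42.4 and 43.8 to 59.5 CPM, the 7 alveolar macrophage markers to 339 to 385 and 180 to 271 CPM, and the 5 markers of ciliated cells to 208 to 424 and 128 to 205 CPM. Of these markers, 8 of 8, 8 of 8, 1 of 7 and 0 of 5 had a higher mean level in GRdim/dim lungs, and none was at 0 counts in all libraries. By edgeR none was a differentially expressed gene (DEG; adjusted p under 0.05 and a log2 fold change beyond 0.5), and by DESeq2 3 were, *Igkc* and *Trac* with a higher and *Chil3* with a lower level in GRdim/dim lungs. Among the markers of the other types, DESeq2 called *Retnlg* of neutrophils and *Cldn5* of endothelial cells (higher) and *Scgb3a1* of club cells (lower). Of all genes to which it gave an adjusted p, DESeq2 called 1.71%. *Chil3* was the largest part of the alveolar macrophage sum, at 244, 250 and 264 CPM in GR+/+ and 161, 156 and 95.6 CPM in GRdim/dim lungs. The genotypes overlapped in every other marker of that list. Their log2 fold changes (edgeR) were -0.70 (*Marco*), -0.39 (*Ear2*), -0.03 (*Mrc1*), 0.32 (*Siglecf*), -0.83 (*Fabp1*) and -0.01 (*Pparg*). The genotypes also overlapped in every single marker of ciliated cells. The part of the cell types in the enzyme values was not tested. In bulk lung RNA, fewer cells of a type and less RNA per cell cannot be told apart.

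*Mpst* and *Tst* are related genes that lie side by side on chromosome 15, with 508 bases between their divergent starts. Their coding sequences are 891 bases long each and were identical at 595 of 869 aligned bases (68.5%). The 60 coding bases in which they are most alike, bases 618 to 677 of both, are shown because reads from such a stretch are the ones most easily counted on the wrong gene. The sequences were read from GRCm38, with the 11 bases that differ in capitals. They are in the last exon of each gene, exon 3 of 3 of *Mpst* (chr15:78413401-78413460, plus strand) and exon 2 of 2 of *Tst* (chr15:78399949-78400008, minus strand).
Mpst: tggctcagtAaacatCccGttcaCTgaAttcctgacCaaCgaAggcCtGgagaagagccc
Tst: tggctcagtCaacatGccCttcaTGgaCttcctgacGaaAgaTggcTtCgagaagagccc
The longest run identical between the coding sequences was 18 bases, and no window of 31 bases of the longest coding *Tst* transcript occurred in a transcript of another gene. Of the *Mpst* windows, 0.696% occurred in other genes, and of the *Ethe1* windows 4.75%. All of the shared *Ethe1* windows were in *Zfp575*, whose exons overlap those of *Ethe1* by 99 bases on the opposite strand, and *Zfp575* had only 2 to 11 counts per library. No window was shared for *Cth*, *Cbs* or *Sqor*, and 0.324% were for *Suox*.

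RefSeq promoter sequences (GRCm38.p6) were found for 5 of the 7 genes, with 8 start sites, and none was found for *Cth* and *Tst*. Since the receptor binds DNA, the windows from 250 bases before to 50 bases after each start were searched on both strands for 3 motifs. AGAACA is a single arm of the glucocorticoid response element (GRE). The full element is that arm followed by NNN and TGTTCT, and TGACNNNGC is the antioxidant response element. The single arm is in 19% of all 32851 RefSeq promoters of this length, and among the enzymes it was found once, with its first base at -103 of *Sqor*, where -1 is the last base before the start. The full element is in 0.00913% of promoters and was in none of the 8. The antioxidant response element is in 12.4% of promoters and was found at 1 of the 3 *Mpst* starts, with its first base at -12. The bases before the start of *Sqor*, with the arm in capitals, are set beside those of *Cbs* and *Ethe1*, the enzymes with the largest differences between genotypes in either direction, in which no motif was found. They cover chr2:122771463-122771712 (plus strand) for *Sqor*, chr17:31637239-31637455 (minus strand) for *Cbs* and chr7:24587293-24587542 (plus strand) for *Ethe1*. The *Cbs* stretch stops short of the RefSeq start, where the window enters an annotated exon of the gene, and the others run up to the start.
Sqor: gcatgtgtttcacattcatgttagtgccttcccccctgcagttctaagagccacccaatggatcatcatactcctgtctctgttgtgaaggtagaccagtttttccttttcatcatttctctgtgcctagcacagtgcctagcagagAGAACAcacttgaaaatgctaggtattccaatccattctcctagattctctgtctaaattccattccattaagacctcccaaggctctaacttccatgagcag
Cbs: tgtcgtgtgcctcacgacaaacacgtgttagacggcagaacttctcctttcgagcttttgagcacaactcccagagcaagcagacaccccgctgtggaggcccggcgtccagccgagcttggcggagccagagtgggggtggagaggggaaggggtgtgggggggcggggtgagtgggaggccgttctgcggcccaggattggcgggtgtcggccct
Ethe1: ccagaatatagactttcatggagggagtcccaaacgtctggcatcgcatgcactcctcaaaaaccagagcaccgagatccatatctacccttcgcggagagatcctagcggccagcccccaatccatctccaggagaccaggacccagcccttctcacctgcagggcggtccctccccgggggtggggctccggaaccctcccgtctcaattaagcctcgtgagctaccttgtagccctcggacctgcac
The *Sqor* start of RefSeq lies inside the gene as the deposited coordinates give it. Letters found in a window are a description and not a binding site. The 8 windows held 45% (*Sqor*) to 73.3% (*Suox*) G and C, against a median of 52.7% over all promoters.

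Among the enzymes that make H2S, *Cbs* had the lowest level and the largest difference between genotypes. *Cbs* (ENSMUSG00000024039, chr17:31612623-31637199) was at 12.0, 13.9 and 12.5 CPM in GR+/+ replicates 1, 2 and 3 and at 6.96, 13.4 and 10.8 CPM in GRdim/dim replicates 1, 2 and 3. GRdim/dim replicate 1 and replicate 3 were below every GR+/+ lung, but replicate 2 was among them, so the genotypes overlapped. The means were 12.8 ± 1.01 and 10.4 ± 3.25 CPM (SD, n = 3). The log2 fold change of GRdim/dim against GR+/+ was -0.30 (SE 0.27, 95% interval -0.90 to 0.31), and the adjusted p of edgeR's quasi-likelihood test was 0.806. Without GRdim/dim replicate 1 the log2 fold change was -0.07, and without GRdim/dim replicate 2 it was -0.53.

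*Cth* (ENSMUSG00000028179, chr3:157894248-157925077) was at 16.4, 14.3 and 22.3 CPM in GR+/+ lungs and at 17.0, 19.1 and 20.2 CPM in GRdim/dim lungs. The GRdim/dim lungs all fell between the lowest and the highest GR+/+ lung. The means were 17.6 ± 4.15 and 18.8 ± 1.64 CPM, with a log2 fold change of 0.09 (SE 0.23, 95% interval -0.41 to 0.58) and an adjusted p of 0.951 (edgeR). The highest *Cth* level was in GR+/+ replicate 3. That library also held *Alb*, the albumin gene of hepatocytes, at 47.5 CPM, where the other 5 held 0.359 to 2.88 CPM, and the 5 hepatocyte markers summed to 59.7 CPM in it and to 1.13 to 4.56 CPM in the others, with *Fgb* at 0 counts in 3 of them. Without that library the log2 fold change of *Cth* was 0.29 (adjusted p = 0.831, edgeR), and without GR+/+ replicate 2 it was -0.04. The part of the hepatocyte markers in the *Cth* level was not tested.

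*Mpst* (ENSMUSG00000071711, chr15:78406416-78414013) was at 33.6, 32.5 and 30.8 CPM in GR+/+ lungs and at 23.3, 35.1 and 35.6 CPM in GRdim/dim lungs. GRdim/dim replicate 1 lay below the GR+/+ lungs and both other lungs of that genotype above them. The means were 32.3 ± 1.38 and 31.3 ± 6.96 CPM, with a log2 fold change of -0.04 (SE 0.21, 95% interval -0.50 to 0.41) and an adjusted p of 0.975 (edgeR). Without GRdim/dim replicate 1 it was 0.14.

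The oxidizing enzymes showed the same overlap. *Sqor* (ENSMUSG00000005803, chr2:122765237-122809569), the entry point of sulfide oxidation, was at 54.3, 49.9 and 62.8 CPM in GR+/+ and at 61.8, 50.1 and 67.1 CPM in GRdim/dim lungs. Each genotype had 1 lung near the low end, and only GRdim/dim replicate 3 was above all GR+/+ lungs. Its log2 fold change was 0.10 (SE 0.18, 95% interval -0.30 to 0.49), the narrowest interval of the 7, with an adjusted p of 0.927 (edgeR).

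*Ethe1* (ENSMUSG00000064254, chr7:24587543-24608925), the persulfide dioxygenase, was at 13.4, 11.5 and 12.5 CPM in GR+/+ and at 11.5, 13.9 and 17.6 CPM in GRdim/dim lungs. It was highest in GRdim/dim replicate 3, while GRdim/dim replicate 1 was level with the lowest GR+/+ lung. Its log2 fold change, 0.20 (SE 0.23, 95% interval -0.31 to 0.72; adjusted p = 0.857, edgeR), was the largest above 0 among the enzymes. Without GRdim/dim replicate 3 it was 0.03, and without GRdim/dim replicate 1 it was 0.34.

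*Tst* (ENSMUSG00000044986, chr15:78399556-78405907) was at 43.4, 48.1 and 49.6 CPM in GR+/+ and at 36.6, 48.3 and 61.9 CPM in GRdim/dim lungs. The GRdim/dim lungs held both the lowest and the highest level of the 6. The log2 fold change was 0.05 (SE 0.21, 95% interval -0.40 to 0.51; adjusted p = 0.968, edgeR), and -0.15 without GRdim/dim replicate 3.

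*Suox* (ENSMUSG00000049858, chr10:128669894-128674073), the last enzyme on the way to sulfate, was at 15.96, 20.98 and 20.2 CPM in GR+/+ and at 15.2, 19.6 and 18.7 CPM in GRdim/dim lungs. Replicate 1 of each genotype was low, and the genotypes overlapped. The log2 fold change was -0.10 (SE 0.21, 95% interval -0.57 to 0.37; adjusted p = 0.942, edgeR). It was 0.02 with a covariate for sex-linked expression and 0.01 without GRdim/dim replicate 1.

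**Figure D1:**
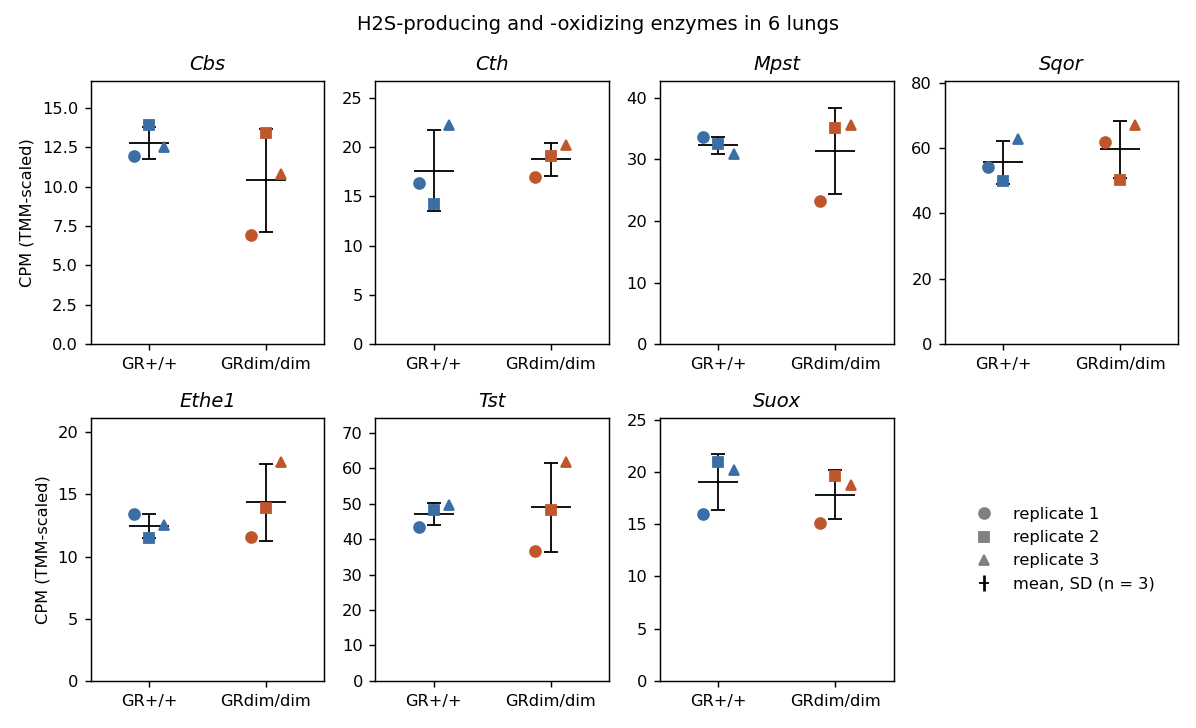
CPM (TMM-scaled) of each enzyme in the 3 GR+/+ (blue) and 3 GRdim/dim (orange) lungs, with marker shapes for the replicate numbers, the mean as a long bar and the SD as error bars, each axis starting at 0. The genotypes overlap in all 7 panels, and GRdim/dim replicate 1 (circles) is the lowest of its genotype for every enzyme but *Sqor*.

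Over the whole set, 0 of 7 enzymes were DEGs by edgeR, where 0.169% of all genes tested were. DESeq2 called 0 of 7 as well, with adjusted p between 0.864 and 0.988, where it called 1.71% of the genes to which it gave an adjusted p. At an unadjusted p under 0.05 the count was also 0 of 7, against 9.6% of all genes (4.91% higher and 4.68% lower in GRdim/dim lungs, edgeR), and the smallest unadjusted p was 0.300, for *Cbs*. The genotypes were separate in CPM for 0 of 7 enzymes and for 14.8% of all genes tested. No enzyme had a log2 fold change beyond 0.5, which 19% of all genes had. There were 4 enzymes with a higher and 3 with a lower mean level in GRdim/dim lungs, and the median log2 fold change was 0.05, beside 0.01 over all genes tested.

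The intervals give the differences that these lungs do not exclude. The 95% intervals of all 7 enzymes lay within a log2 fold change of -1 to 1, as did those of 64.6% of all genes tested. Their outer bounds were a fold of 0.536 for *Cbs* and of 1.65 for *Ethe1*. The adjusted p-values do not show that the levels were equal: a *Cbs* level as low as 0.536 times that of GR+/+ lungs is within its interval.

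**Figure D2:**
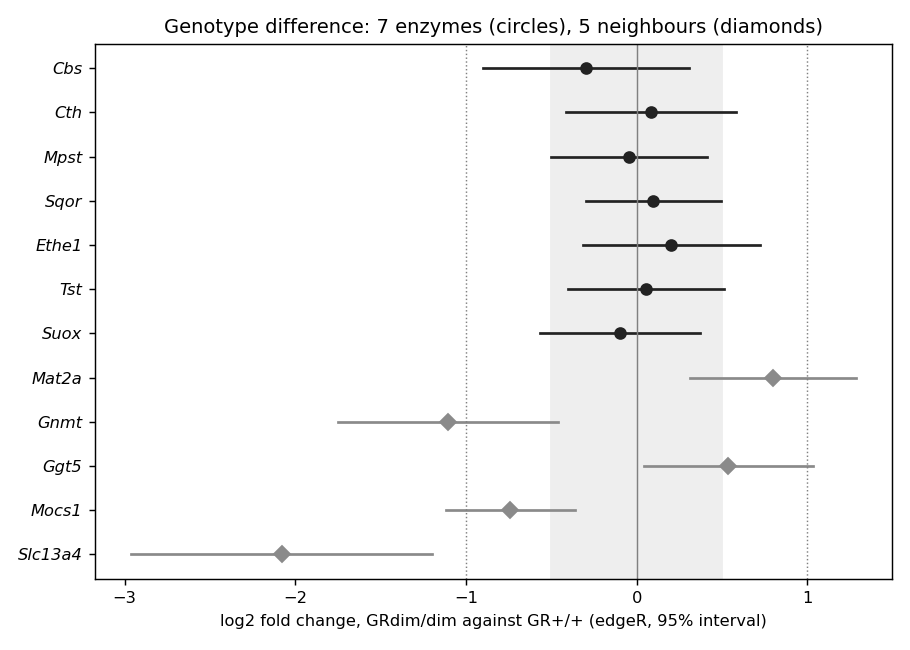
Log2 fold change of GRdim/dim against GR+/+ lungs with its 95% interval from the edgeR fit, for the 7 enzymes (black circles) and for 5 genes of neighbouring sulfur pathways (grey diamonds), with the range from -0.5 to 0.5 shaded and dotted lines at -1 and 1. The intervals of all 7 enzymes cross 0, and those of *Mat2a*, *Gnmt*, *Ggt5*, *Mocs1* and *Slc13a4*, which were chosen by their unadjusted p, do not.

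Levels of different genes were compared as CPM per kilobase of the gene length in the deposited file. *Tst* (mean over 6 lungs 15.2, range 11.6 to 19.6), *Mpst* (14.8, range 10.9 to 16.6) and *Sqor* (14.1, range 12.2 to 16.4) were highest. *Tst* was above *Mpst* in 4 of 6 lungs and *Mpst* above *Sqor* in 4 of 6, so these neighbours in the order did not differ beyond their spread. *Ethe1* followed with 9.03 CPM per kilobase (7.72 to 11.9) and was below *Sqor* in 6 of 6 lungs with no overlap of their ranges. *Suox* was at 7.38 (6.07 to 8.40) and *Cth* at 6.52 (5.11 to 7.98) CPM per kilobase, each lower than the gene before it in 5 of 6 lungs but with overlapping ranges. *Cbs* was last with 3.47 CPM per kilobase (2.08 to 4.16), below *Cth* in 6 of 6 lungs, and the ratio of *Cth* to *Cbs* was 1.23 to 2.92. In the order of mean CPM among all genes tested, the enzymes lay between the 37.8th percentile (*Cbs*) and the 73.3rd (*Sqor*).

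The order in the middle depended on the length used. Taking the longest coding transcript in place of the deposited gene length, an alternative chosen after the data had been seen, put *Tst* at 42.0, *Sqor* at 29.1, *Mpst* at 18.1, *Cth* at 10.03, *Ethe1* at 9.03, *Suox* at 7.38 and *Cbs* at 4.57 CPM per kilobase. *Tst* stayed first and *Cbs* last, while *Sqor* passed *Mpst* and *Cth* passed *Ethe1* and *Suox*.

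**Figure D3:**
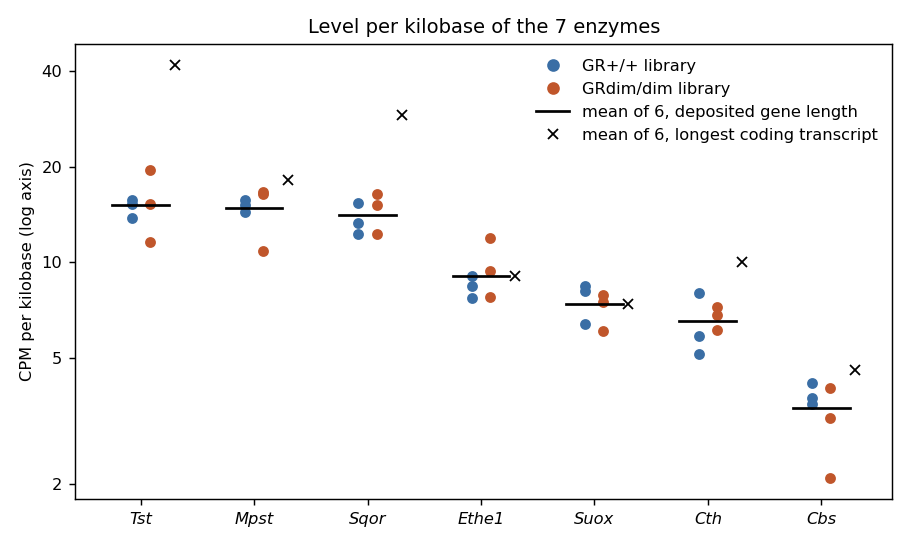
Level of the 7 enzymes in CPM per kilobase (log axis), with 1 point per lung (blue GR+/+, orange GRdim/dim), bars for the mean of 6 lungs with the deposited gene length and crosses for the mean with the longest coding transcript. In the mean of 6 lungs *Tst* is first and *Cbs* last with either length, and *Tst*, *Mpst* and *Sqor* overlap with the deposited length.

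Of the H2S-making enzymes, *Mpst* held the largest share of the summed level per kilobase in every lung, 62.4, 62.1 and 55.1% in GR+/+ and 57.1, 60.2 and 61.3% in GRdim/dim lungs. The 3 making enzymes together were at 25.1, 24.4 and 26.1 CPM per kilobase in GR+/+ and at 19.0, 27.2 and 27.1 in GRdim/dim lungs. The 4 oxidizing enzymes together were at 42.4, 43.6 and 47.6 and at 40.5, 44.7 and 55.4 CPM per kilobase. The ratio of oxidizing to making enzymes was 1.69, 1.78 and 1.82 in GR+/+ and 2.13, 1.64 and 2.05 in GRdim/dim lungs, and the genotypes overlapped in it. The level of *Mpst* relative to its neighbour *Tst* was 1.14, 0.996 and 0.918 in GR+/+ and 0.939, 1.07 and 0.849 in GRdim/dim lungs, which overlapped too. These shares and ratios depend on the gene length: with the longest coding transcript, *Mpst* held 50.6 to 58.2% of the making enzymes, the oxidizing enzymes were at 2.36 to 3.03 times the making enzymes, and *Mpst* was at 0.375 to 0.504 times *Tst*, with the genotypes overlapping in all of them.

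The GRdim/dim lungs were spread more widely than the GR+/+ lungs for 5 of 7 enzymes, the exceptions being *Cth* and *Suox*. The SD was 4.27 to 23.5% of the mean in GR+/+ and 8.73 to 31.3% in GRdim/dim lungs. The share of all genes tested with a wider spread in GRdim/dim lungs was not computed. GRdim/dim replicate 1 was the lowest of its genotype for 6 of 7 enzymes (all but *Sqor*), and GRdim/dim replicate 3 was the highest for 5 of 7. Without replicate 1 of GRdim/dim, 6 of 7 enzymes had a higher mean level in GRdim/dim lungs, with a median log2 fold change of 0.14, and without replicate 3 only 3 did, with a median of -0.13. The shares of all genes tested that behave in the same way were not computed. These counts therefore do not set the enzymes apart from other genes. The 7 neutrophil markers summed to 1081 CPM in GRdim/dim replicate 1, to 341 and 479 CPM in the other GRdim/dim lungs and to 240 to 466 CPM in GR+/+ lungs. Their part in the lower enzyme levels of that lung was not tested.

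**Figure D4:**
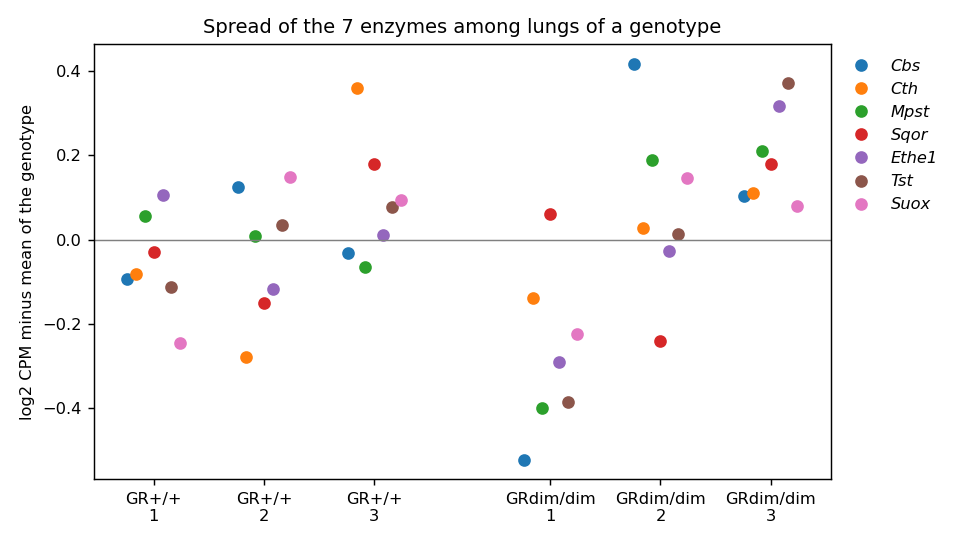
Log2 CPM of each enzyme minus its mean over the 3 lungs of the same genotype, with 1 colour per enzyme and 1 column per lung. In GRdim/dim replicate 1 only *Sqor* is above 0, and in GRdim/dim replicate 3 all 7 enzymes are above 0.

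Among the 21 pairs of enzymes, *Cbs* and *Suox* had the smallest p for varying together over the 6 lungs. For *Cbs* and *Suox*, Pearson's r was 0.79 (exact permutation p = 0.0361, adjusted over 21 pairs 0.558) and Spearman's rho 0.886 (exact permutation p = 0.0333, adjusted 0.572), and without the 2 lungs farthest from the median of *Cbs* r was 0.32. The neighbours *Mpst* and *Tst* had an r of 0.79 (exact permutation p = 0.0875, adjusted 0.558) and a rho of 0.60 (exact permutation p = 0.242, adjusted 0.679), which became -0.39 for r without the 2 farthest lungs. The largest r, 0.84, was that of *Cbs* and *Mpst* (exact permutation p = 0.126, adjusted 0.558). The rho of this pair was 0.14, and its r was -0.27 without the 2 lungs farthest from the median of *Cbs*. No pair passed the adjustment. The 3 lungs of a genotype are too few for a value within it.

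For *Cbs* and *Ethe1*, the enzymes with the smallest unadjusted p, the genes most alike in log2 CPM over the 6 lungs were taken from all genes tested. They were *Zrsr1* (Pearson's r 0.996), *Hhipl2* (0.991) and *Mettl24* (0.985) for *Cbs*, and *Gm21781* (0.994), *Smox* (0.989) and *Cenph* (0.988) for *Ethe1*. With 6 lungs and 16568 genes, values of this size describe these libraries and carry no test.

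The pathways that feed and drain H2S were followed in 52 other genes, of which 48 had enough reads to be tested. By edgeR, 0 of 48 were DEGs, and 5 had an unadjusted p under 0.05 (10.4%, beside 9.6% of all genes tested). DESeq2 called 4 of the 48, *Slc13a4*, *Mocs1*, *Gnmt* and *Mat2a*, where it called 1.71% of all genes to which it gave an adjusted p. There were 25 genes with a higher and 23 with a lower mean level in GRdim/dim lungs, with a median log2 fold change of 0.00. The genotypes did not overlap in 7 of the 48, a count to be read beside the 14.8% over all genes. The 5 genes with an unadjusted p under 0.05 were named for that p, so their fold changes and their lack of overlap are a description.

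Upstream of *Cbs*, the methionine cycle supplies homocysteine. Of its 12 genes, 10 were tested, 3 with a higher and 7 with a lower mean level in GRdim/dim lungs, and 2 had an unadjusted p under 0.05, 1 in each direction. *Mat2a*, which makes S-adenosylmethionine from methionine in most tissues and had the highest level of the list (114 CPM per kilobase), was at 339, 383 and 401 CPM in GR+/+ and at 652, 815 and 487 CPM in GRdim/dim lungs. All GRdim/dim lungs were above all GR+/+ lungs. In *Mat2a* the log2 fold change was 0.80 (SE 0.22, 95% interval 0.32 to 1.29), with an adjusted p of 0.264 by edgeR and of 0.0339 by DESeq2 (0.0156 to 0.568 over all alternatives). *Gnmt*, the glycine methyltransferase that uses up S-adenosylmethionine, was at 11.8, 10.4 and 16.2 CPM in GR+/+ and at 4.26, 6.48 and 7.17 CPM in GRdim/dim lungs, again without overlap but in the other direction. Its log2 fold change was -1.10 (SE 0.29, 95% interval -1.75 to -0.46), with an adjusted p of 0.244 by edgeR and of 0.0224 by DESeq2 (0.0224 to 0.490 over all alternatives). *Gnmt* was highest in GR+/+ replicate 3, the library with the hepatocyte markers, and without that library its log2 fold change was -0.90 (adjusted p = 0.490, edgeR). A pair of genes of the list, *Bhmt* and *Bhmt2*, had too few reads to be tested.

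**Figure D5:**
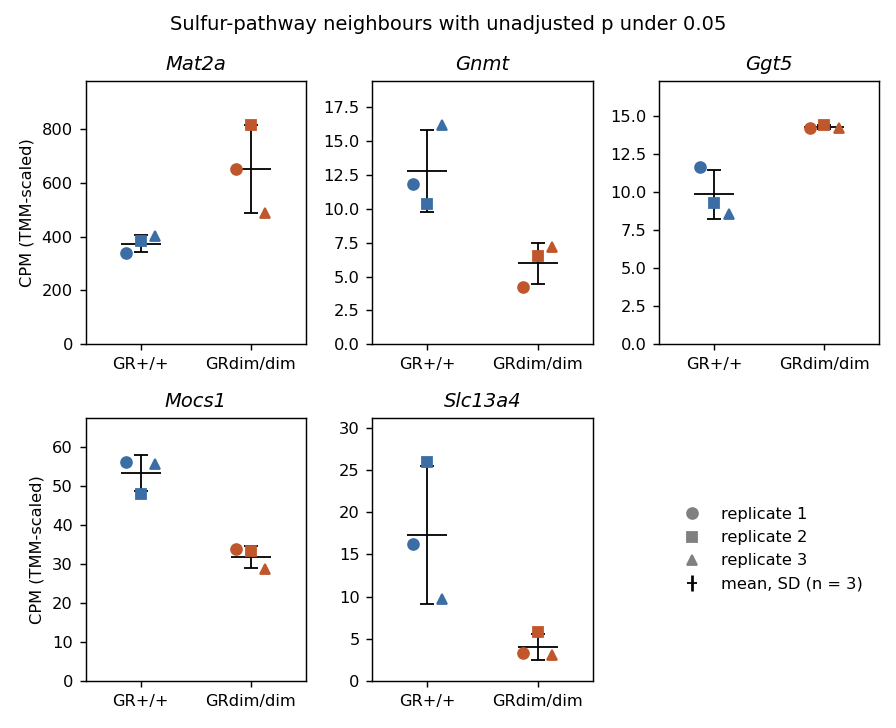
CPM (TMM-scaled) in the 6 lungs of the 5 genes of neighbouring sulfur pathways with an unadjusted p under 0.05, drawn as for the enzymes, each axis starting at 0. The genotypes do not overlap in any of the 5 panels, with *Mat2a* and *Ggt5* higher and *Gnmt*, *Mocs1* and *Slc13a4* lower in GRdim/dim lungs.

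Around *Mpst*, the list held the aminotransferases that make its substrate, the oxidase gene *Dao* and the thioredoxins that take up its sulfur. Of these 5 genes 4 were tested, and *Dao* had too few reads. None had an unadjusted p under 0.05. All 4 had a log2 fold change above 0 by edgeR, as did 8439 of all 16568 genes tested. For 1 of them it was 0.002 by edgeR and -0.003 by DESeq2. The highest of them per kilobase was *Txn1*, cytosolic thioredoxin (178 CPM per kilobase), with a log2 fold change of 0.13 (SE 0.25). Of 13 genes of cysteine uptake, glutathione synthesis and breakdown and cysteine oxidation, 8 had a higher and 5 a lower mean level, and 1 had an unadjusted p under 0.05. That was *Ggt5*, a γ-glutamyl transferase that acts on glutathione conjugates, which was at 11.7, 9.29 and 8.58 CPM in GR+/+ and at 14.2, 14.4 and 14.2 CPM in GRdim/dim lungs. All GRdim/dim lungs were above all GR+/+ lungs, with a log2 fold change of 0.54 (SE 0.22, 95% interval 0.04 to 1.04) and an adjusted p of 0.484 (edgeR). *Slc3a2*, the heavy chain of the cystine transporter, had the highest level of that list (184 CPM per kilobase) and a log2 fold change of 0.18 (SE 0.30).

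The other enzymes that act on sulfide or persulfides gave 7 tested genes, 5 with a higher and 2 with a lower mean level and 0 with an unadjusted p under 0.05. *Selenbp1*, a methanethiol oxidase that releases H2S, was the most abundant of all the pathway genes with 547 CPM per kilobase, and its log2 fold change was -0.32 (SE 0.18, adjusted p = 0.636, edgeR). It was at 1432, 1292 and 1416 CPM in GR+/+ and at 1060, 1132 and 1124 CPM in GRdim/dim lungs, without overlap. Of 4 genes of thiosulfate sulfurtransferases and sulfur transport in mitochondria, 2 had a higher and 2 a lower mean level and 0 an unadjusted p under 0.05. *Slc25a10*, the mitochondrial dicarboxylate carrier, which also carries sulfite and thiosulfate, was the highest of them at 19.7 CPM per kilobase, with a log2 fold change of 0.27 (SE 0.21).

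Sulfite oxidase needs the molybdenum cofactor. Of the 4 genes of its synthesis, 2 had a higher and 2 a lower mean level, and *Mocs1*, which acts in the first step, had an unadjusted p under 0.05. *Mocs1* was at 56.3, 48.0 and 55.8 CPM in GR+/+ and at 33.8, 33.3 and 28.6 CPM in GRdim/dim lungs, with every GRdim/dim lung below every GR+/+ lung. The log2 fold change was -0.74 (SE 0.17, 95% interval -1.12 to -0.36), with an adjusted p of 0.175 by edgeR and of 0.0172 by DESeq2 (0.0172 to 0.451 over all alternatives). *Suox* itself was at 19.0 ± 2.71 CPM in GR+/+ and 17.8 ± 2.36 CPM in GRdim/dim lungs (SD, n = 3), as given above by lung.

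At the end of the path, 6 genes of sulfate activation and transport were tested, 1 with a higher and 5 with a lower mean level. *Papss1*, which makes the activated sulfate used by sulfotransferases, had the highest level (17.6 CPM per kilobase) and a log2 fold change of -0.05 (SE 0.18). *Slc13a4*, a sodium-sulfate cotransporter, showed the largest difference of all 48 genes. It was at 16.2, 26.0 and 9.69 CPM in GR+/+ and at 3.29, 5.82 and 3.04 CPM in GRdim/dim lungs, without overlap. Its log2 fold change was -2.08 (SE 0.40, 95% interval -2.96 to -1.20), with an adjusted p of 0.0961 by edgeR and of 2.5e-05 by DESeq2 (1.1e-08 to 0.255 over all alternatives). It was low relative to the enzymes, with a mean of 2.36 CPM per kilobase.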

How the data were processed

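For 6 libraries of lung RNA (Trizol, poly(A) capture) the authors deposited raw counts for each gene, as whole numbers that were neither normalized nor pooled. The submitters' processing notes name mm10 and DESeq2. How reads were aligned and counted, by which annotation release and with or without strand, is not given in the sources used here. The deposited file also holds gene names, coordinates and lengths. Groups came from the sample labels.

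Counts were analysed with edgeR 4.0.16 in R 4.3.3 (filterByExpr, TMM scaling, robust glmQLFit and glmQLFTest) and Benjamini-Hochberg (BH) adjustment over 16568 genes. Standard errors were worked back from the log2 fold change and the F statistic of that test. Intervals used them with the degrees of freedom of the fit. Log2 CPM used a prior count of 2, and CPM was scaled by the TMM factors. The procedure was tested on simulated data. These were drawn from the model fitted to the same counts, so they cannot show whether that model holds. Within a genotype, libraries differed beyond sampling noise (chi-square per gene 19.2 to 62.9, where noise gives about 1), so each counted as a replicate, 1 per mouse. Named genes are the 7 enzymes, the pathway genes with an unadjusted p under 0.05 or the highest level per kilobase of their list, and the 3 genes most alike to each of the 2 enzymes with the smallest p. Genes named as lacking reads, and marker genes, were chosen after their values were seen.

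Alternatives were RLE scaling, no filter, at least 10 counts in every library, DESeq2 1.42.0, a replicate block, a sex covariate, no fold threshold, each library left out, and levels without TMM factors. Only the longest coding transcript (GENCODE M21) as length was chosen once the data had been seen. The enzymes and lists were chosen with earlier results of these data known.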

Additional observations from a re-analysis of the deposited data

How the results depend on the processing

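The number of enzymes called was 0 of 7 in edgeR and in all 13 alternatives, with adjusted p of at least 0.666. Of the 84 log2 fold changes of the enzymes under 12 alternatives, 79 kept their direction and 5 turned: *Suox* to 0.018 with the sex covariate and to 0.015 without GRdim/dim replicate 1, *Cth* to -0.041 without GR+/+ replicate 2, *Mpst* to 0.14 without GRdim/dim replicate 1, and *Tst* to -0.15 without GRdim/dim replicate 3. With each library left out in turn, the log2 fold change ranged from -0.041 to 0.29 for *Cth*, -0.53 to -0.07 for *Cbs*, -0.14 to 0.14 for *Mpst*, 0.03 to 0.34 for *Ethe1*, 0.01 to 0.21 for *Sqor*, -0.20 to 0.015 for *Suox* and -0.15 to 0.23 for *Tst*. Among the pathway genes named, *Txn1* turned to -0.22 and *Slc3a2* to -0.21 without GRdim/dim replicate 3, and *Papss1* to 0.097 without GRdim/dim replicate 1, with ranges of -0.22 to 0.32, -0.21 to 0.48 and -0.15 to 0.097. The cause was not tested. The order of the levels per kilobase was the same without TMM factors.

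The count of DEGs over all genes was 28 by edgeR, 522 of 31368 genes without a filter and 272 by DESeq2, and 4 to 22 with a library left out, lowest without GR+/+ replicate 2 (12 without GR+/+ replicate 1, 17 without GR+/+ replicate 3 and 14 without GRdim/dim replicate 3). The pathway genes called were 0 of 48 by edgeR, and 4 without a filter and 4 by DESeq2, the same genes in both. With the replicate number as a block, 0 enzymes, 1 pathway gene (*Slc13a4*) and 34 genes in all were called. The deviations of lungs with the same number had an r of 0.22, 0.04 and -0.05 across genes. For lungs with unlike numbers, r was -0.27 to 0.19. By the score of sex-linked genes, replicate 1 was male in both genotypes. The labels name no pairing, and these values cannot show whether the numbers pair mice. With 3 lungs per genotype, differences inside the 95% intervals of the enzymes are not excluded.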
